A study of Mus musculus with 50 samples.

Results

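Hox genes encode homeodomain transcription factors that mark position along the body axis. The mouse carries them in 4 clusters, A on chromosome 6, B on chromosome 11, C on chromosome 15 and D on chromosome 2. Members were taken as the 39 entries of the gene table, out of 56600, whose symbol was Hox followed by a cluster letter and a paralog number. Cluster A held 11 of them, B 10, C 9 and D 9. Estimated counts were found for 36 members, and 3 (Hoxc12, Hoxd12 and Hoxd13) had none in any library and were dropped. Of the 36, 25 passed the filter on low counts and were tested, which were 6 in A, 8 in B, 6 in C and 5 in D.

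The study sequenced poly(A) RNA of single lymph nodes from C57BL/6J mice at postnatal day 56, to ask how vitamin A bears on the regional differences among nodes that drain the gut. Dams received a vitamin A deficient diet, or a matched control diet holding vitamin A at 20 IU/g (sufficient here), from 3 weeks ahead of breeding. The nodes taken drained the duodenum, the jejunum, the ileum, the colon or, for the inguinal node, skin, with 5 libraries for each of the 10 combinations of node and diet. All 25 deficient libraries came from female mice. Of the sufficient libraries, 10 were female (numbers 1 and 2 of each node) and 15 were male (numbers 3, 4 and 5). All mice were of 1 strain and carried no genetic change that the labels mention. Litter and dam cannot be told apart from the diet. Which nodes shared a mouse is not in the labels, and p-values therefore reflect only how libraries spread.

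In the embryo Hox genes switch on in the order in which they lie in a cluster, so low paralog numbers reach further toward the head and high numbers are limited to the trunk, tail and limbs. Many mesenchymal cells, fibroblasts among them, keep a Hox pattern of their site of origin in the adult, and haematopoietic progenitors also use Hox genes of clusters A and B. Retinoic acid, the active form of vitamin A, induces genes at the low-numbered end of the clusters in embryonic tissue through receptors that bind AGGTCA half-sites, while CDX factors bind TTTATG and act on the middle and high-numbered genes.

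Promoters are shown for 4 members of cluster D, which were called between duodenal and ileal nodes on both diets, and for Hoxb4, which was called between diets in 3 nodes. Each is given as the 250 bases before the annotated start, 5′ to 3′, from RefSeq (GRCm38.p6). Capitals mark matches to 3 motifs, namely AGGTCA (which reads as TGACCT from the other strand), the CDX motif TTTATG, and TATAAA (whose reverse complement is written TTTATA). All 5 lie on the plus strand, Hoxd4 at chr2:74721728-74721977, Hoxd8 at chr2:74704365-74704614, Hoxd9 at chr2:74697513-74697762, Hoxd10 at chr2:74691641-74691890 and Hoxb4 at chr11:96318017-96318266.
Hoxd4: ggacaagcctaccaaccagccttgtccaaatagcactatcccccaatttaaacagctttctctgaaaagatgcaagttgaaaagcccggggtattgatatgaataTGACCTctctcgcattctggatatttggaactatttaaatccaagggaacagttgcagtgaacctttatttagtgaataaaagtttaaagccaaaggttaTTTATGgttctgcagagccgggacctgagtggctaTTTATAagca
Hoxd8: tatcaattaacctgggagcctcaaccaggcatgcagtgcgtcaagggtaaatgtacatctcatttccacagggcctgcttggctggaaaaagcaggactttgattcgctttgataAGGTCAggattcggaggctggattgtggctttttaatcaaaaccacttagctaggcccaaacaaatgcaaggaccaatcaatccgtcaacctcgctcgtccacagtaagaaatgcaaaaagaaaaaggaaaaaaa
Hoxd9: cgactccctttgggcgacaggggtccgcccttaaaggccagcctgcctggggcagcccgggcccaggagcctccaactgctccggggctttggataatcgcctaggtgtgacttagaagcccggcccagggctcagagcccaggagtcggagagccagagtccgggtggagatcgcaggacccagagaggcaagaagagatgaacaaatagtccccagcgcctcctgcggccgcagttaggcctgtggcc
Hoxd10: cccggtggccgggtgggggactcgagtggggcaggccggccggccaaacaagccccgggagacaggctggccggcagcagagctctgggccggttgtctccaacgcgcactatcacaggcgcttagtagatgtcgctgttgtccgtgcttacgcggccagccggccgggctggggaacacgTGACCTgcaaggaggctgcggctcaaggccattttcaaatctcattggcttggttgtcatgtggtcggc
Hoxb4: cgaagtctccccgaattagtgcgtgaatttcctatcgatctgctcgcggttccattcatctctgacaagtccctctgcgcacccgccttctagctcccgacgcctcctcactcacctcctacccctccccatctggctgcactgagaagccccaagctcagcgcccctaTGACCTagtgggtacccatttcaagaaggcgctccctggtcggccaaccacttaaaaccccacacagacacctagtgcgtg
Hoxd4, Hoxd8, Hoxd10 and Hoxb4 each held 1 AGGTCA, Hoxd4 also held 1 TTTATG and 1 TATAAA, and the Hoxd9 window held none of them. RefSeq gave windows for 22 of the 39 members, 24 in all. AGGTCA was found in 6 of these 24 (25%), against 14.02% of all 32851 windows, TTTATG in 5 (20.83%, against 10.76%), and TATAAA in 4 (16.67%, against 12.37%). TGATTNAT, bound by Hox proteins with their PBX partners, was found in 2 (8.333%, against 2.825%). Direct repeats of AGGTCA spaced by 1, 2 or 5 bases, the form that retinoic acid receptors bind best, were found in 0 of the 24 and in 0.03348%, 0.009132% and 0.009132% of all windows. Each Hox window held a CG, with a median of 12.5 matches, against 6 over all windows. A match describes the letters only, and binding was not measured.

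Library totals were 5335369 to 8904722 estimated counts, with a median of 7640371. All 7 genes that define lymph nodes here, such as Ptprc and Cr2, were present, and their summed level was 3022 to 4546 CPM in each library (CPM, counts scaled to library size with TMM normalisation). In 6 libraries pancreatic genes took over 1% of counts, and these were 3 deficient duodenal (2, 3 and 4), 2 sufficient duodenal (2 and 5) and sufficient jejunal 3. The transcript Gm19220 took at most 1.70% in 10 deficient libraries and at least 5.37% in the other 40. Calls of the members described in full that were lost without either class are given beside the result.

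Hox genes were low in these nodes. Averaged over 50 libraries, the tested members lay between 0.737 and 12.7 CPM, 3 of them under 1 CPM and 5 at 5 CPM or more, and 19 members had a count in every library. Per kilobase of transcript the highest levels were those of Hoxd8 (6.21 CPM per kb) and Hoxd9 (5.94), followed by Hoxa7 (4.45), Hoxd4 (4.39), Hoxb7 (3.54), Hoxc6 (3.51), Hoxb4 (3.32), Hoxb6 (2.93) and Hoxc8 (2.54). Hoxa7, Hoxb7, Hoxc6 and Hoxd8 were thus the highest member of their clusters, and these act in the trunk of the embryo. The 11 untested members with a count, such as Hoxa11, Hoxa13, Hoxc11 and Hoxd11, averaged at most 0.653 CPM. In a whole node, fewer cells of a type and less RNA per cell cannot be told apart, and this holds for every level below.

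Summed over all members, Hox RNA had its lowest mean in duodenal nodes on the deficient diet, and in duodenal and inguinal nodes on the sufficient diet. The sums were 72.2 ± 8.74 CPM in duodenal, 96.8 ± 14.6 in jejunal, 99.0 ± 8.94 in ileal, 99.995 ± 11.2 in colonic and 95.8 ± 12.3 in inguinal nodes on the deficient diet (SD, n = 5 here and for every group below). In sufficient mice they were 82.2 ± 7.63 in duodenal, 116 ± 7.89 in jejunal, 131 ± 18.3 in ileal, 117 ± 9.72 in colonic and 85.4 ± 14.3 CPM in inguinal nodes. Without the libraries high in pancreatic RNA the duodenal means were 77.7 CPM on the deficient (2 libraries) and 87.4 CPM on the sufficient diet (3 libraries), which put the sufficient duodenal mean above the inguinal one. The duodenal node had the lowest mean of the 5 nodes for 14 of the 25 tested members on the deficient diet and for 15 on the sufficient diet (14 and 13 without the libraries high in pancreatic RNA). The node with the highest mean varied, and lay wholly above the next node for 2 members on the deficient diet (Hoxa9 and Hoxa10) and 1 on the sufficient diet (Hoxa9), all in colonic nodes. Such counts over all genes are not given here, so those of lowest and separate nodes are not read as particular to Hox genes.

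**Figure D1:**
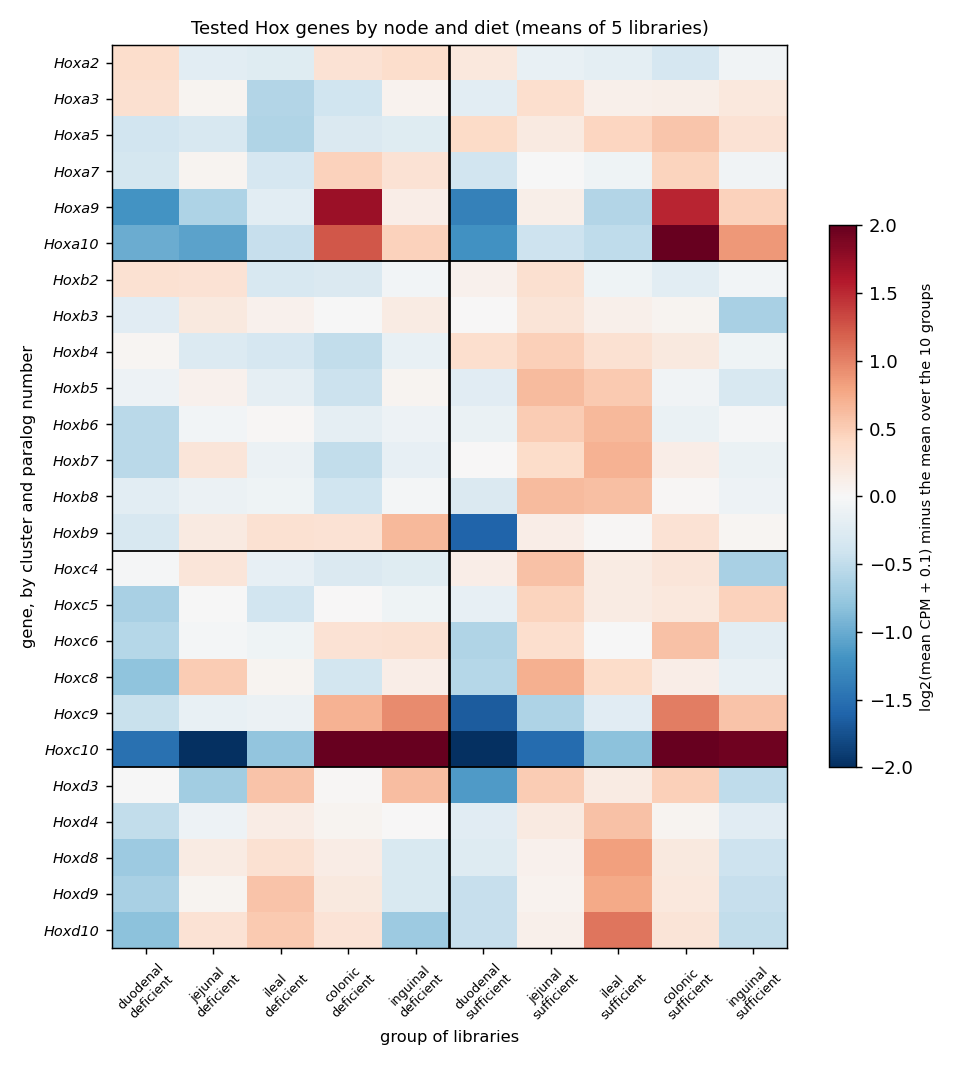
Colour gives, for each tested Hox gene (down the page, by cluster and paralog number) and each node and diet (across), log2 of the mean CPM plus 0.1, minus that gene's mean over the 10 groups, limited to 2 in either direction. Hoxa9, Hoxa10, Hoxc9 and Hoxc10 are red in colonic nodes and blue in duodenal nodes on both diets, and Hoxd4, Hoxd8, Hoxd9 and Hoxd10 are reddest in ileal nodes.

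The clusters reached different paralog numbers in different nodes. A member was taken as present in a group when it reached 0.5 CPM in at least 3 of the 5 libraries. On either diet cluster A then reached Hoxa7 in duodenal nodes, Hoxa9 in jejunal and ileal nodes and Hoxa10 in colonic and inguinal nodes. Cluster C reached Hoxc9 in jejunal and ileal nodes and Hoxc10 in colonic and inguinal nodes on either diet, and in duodenal nodes it reached Hoxc9 on the deficient and Hoxc8 on the sufficient diet. Cluster D reached Hoxd10 in all 10 groups, and cluster B reached Hoxb9 in all but sufficient duodenal nodes, where it ended at Hoxb8. At a threshold of 0.25 CPM, 9 of these 40 end points moved, and cluster D then reached Hoxd11 in colonic nodes on both diets. Cluster A reached Hoxa9 in duodenal nodes on both diets, and Hoxa10 in deficient ileal and sufficient jejunal and ileal nodes. In sufficient duodenal nodes clusters B and C reached Hoxb9 and Hoxc9. At 1 CPM 8 of the 40 moved. Cluster A then ended at Hoxa7 in deficient jejunal, deficient inguinal and sufficient ileal nodes, and at Hoxa9 in sufficient inguinal nodes. The remaining moves were in cluster B, which ended at Hoxb8. The order of nodes in cluster A thus depended on the threshold, though colonic nodes reached Hoxa10 at each.

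The share of Hox RNA held by paralogs 9 to 13 had its lowest mean in duodenal and its highest in colonic nodes on both diets, and by this measure inguinal nodes lay below ileal nodes. It was 14.8% ± 4.26 in duodenal, 17.6% ± 1.08 in jejunal, 23.8% ± 1.85 in ileal, 26.4% ± 1.58 in colonic and 19.3% ± 2.88 in inguinal nodes on the deficient diet. In sufficient mice it was 13.1% ± 1.59 in duodenal, 15.1% ± 1.72 in jejunal, 20.2% ± 1.74 in ileal, 24.4% ± 3.32 in colonic and 19.7% ± 2.75 in inguinal nodes. The mean paralog number, weighted by CPM, was 5.69 ± 0.27 in duodenal, 6.22 ± 0.17 in jejunal, 6.49 ± 0.10 in ileal, 6.60 ± 0.10 in colonic and 6.19 ± 0.20 in inguinal nodes of deficient mice. In sufficient mice it was 5.75 ± 0.17, 6.02 ± 0.16, 6.42 ± 0.20, 6.49 ± 0.16 and 6.22 ± 0.26 in the same order of nodes. Duodenal nodes were lowest in both measures, and the ileal and colonic values differed by less than or about 1 SD in mean paralog number. Without the libraries high in pancreatic RNA the duodenal share lay close to the jejunal one. It was 17.0% (2 libraries) against 17.6% in jejunal nodes on the deficient diet. On the sufficient diet it was 13.9% (3 libraries) against 14.6% (4 libraries). The duodenal mean paralog numbers were then 5.89 and 5.86 on those diets. These scores are descriptions of the members and were not tested.

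Among the 5 nodes any difference was called by edgeR's quasi-likelihood test (Benjamini-Hochberg adjusted p under 0.05) for 10 of the 25 members on the deficient diet, or 40%, against 10.4% of all 18004 genes tested. It was called for 16 on the sufficient diet, or 64%, against 21% of all genes. By paralog number, 0 of 5 members numbered 1 to 3, 4 of 13 numbered 4 to 8 and 6 of 7 numbered 9 or 10 were called on the deficient diet. These counts were 0 of 5, 9 of 13 and 7 of 7 on the sufficient diet. The filter on low counts keeps a low gene that is high in 1 group and can drop one spread evenly. Hoxc10, with a count in 36 libraries, and Hoxa10, with 42, were tested, while Hoxa4, with 49, was not. The counts by paralog number thus depend in part on the filter, and their difference was not tested. By cluster, the calls on the deficient diet were 3 in A, 0 in B, 4 in C and 3 in D, and on the sufficient diet 2 in A, 5 in B, 5 in C and 4 in D. Hoxc10 had the lowest adjusted p on both diets (4.45e-13 deficient, 2.63e-12 sufficient), followed by Hoxd9 (8.18e-06 deficient, 6.05e-07 sufficient). The deficient count was 6 without the libraries low in Gm19220 and also 6 without those high in pancreatic RNA. The sufficient count was 7 with female mice only, which left 2 libraries a node.

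Small intestinal nodes (duodenal, jejunal and ileal, 15 libraries a diet) were compared with colonic nodes. Hoxc10, Hoxa9 and Hoxa10 were lower in small intestinal nodes on both diets, Hoxc9 and Hoxc6 were also called lower on the sufficient diet, and no Hox gene was called higher. On the deficient diet 3 of 25 members were called, all lower, against 1.81% of all genes called and 0.505% called lower. In sufficient mice 5 were called, all lower, against 3.93% called and 1.22% called lower. The median log2 fold change of the 25 members on the deficient diet was -0.20, against -0.01 over all genes, and 16 members were negative. On the sufficient diet it was -0.02, against -0.02 over all genes, so the difference there lay in few members.

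Hoxc10, which patterns the lumbar spinal cord and hindlimb, was close to absent from small intestinal nodes. On the deficient diet it was 0.113, 0, 0.124, 0 and 0.231 CPM in duodenal nodes, 0 in all 5 jejunal nodes, and 0.115, 0.344, 0.121, 0.276 and 0.220 CPM in ileal nodes, against 2.61, 2.27, 2.57, 2.46 and 1.78 CPM in colonic nodes. No small intestinal library came near a colonic one, and the 15 small intestinal libraries held 13 counts in all, against 95 in the 5 colonic libraries. The mean was 22.7 times higher in colonic nodes (fitted log2 fold change -4.94 ± 0.38, SE, adjusted p = 1.46e-11), and the fitted value of a gene with so many zeros depends on edgeR's prior count.

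In sufficient mice Hoxc10 was 0.139, 0, 0, 0 and 0 CPM in duodenal, 0.126, 0.158, 0.152, 0 and 0 in jejunal, and 0.131, 0.425, 0.332, 0.147 and 0 in ileal nodes, against 2.46, 3.32, 3.71, 2.14 and 3.74 CPM in colonic nodes. The groups again did not overlap, with 11 counts against 101. The mean was 28.7 times higher in colonic nodes (-4.92 ± 0.37, adjusted p = 5.22e-12). Of the 1909 annotated exonic bases of Hoxc10, 166 are shared with Hoxc5 on the same strand, so reads there may be divided.

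Hoxa9, which acts in haematopoietic progenitors and in the lower trunk, had a lowest, median and highest level of 0, 0.708 and 2.18 CPM in small intestinal nodes on the deficient diet, against 5.22, 4.42, 3.54, 5.305 and 4.15 CPM in colonic nodes. The groups did not overlap (log2 fold change -2.48 ± 0.37, adjusted p = 1.55e-05). In sufficient mice Hoxa9 ranged over 0.139, 0.567 and 2.39 CPM in small intestinal nodes, against 4.37, 3.12, 4.26, 4.81 and 3.12 CPM in colonic nodes (-2.26 ± 0.38, adjusted p = 0.000101), again without overlap.

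Hoxa10, which patterns the lumbar spine and the uterus, ranged over 0, 0.249 and 0.620 CPM in small intestinal nodes on the deficient diet, against 1.04, 1.47, 1.61, 1.16 and 1.63 CPM in colonic nodes. All colonic libraries lay above all small intestinal ones (-2.37 ± 0.45, adjusted p = 0.000785). The sufficient values were 0, 0.251 and 0.951 CPM in small intestinal nodes and 2.60, 2.08, 4.26, 1.47 and 2.18 CPM in colonic nodes (-3.15 ± 0.43, adjusted p = 2.99e-06). Without the libraries low in Gm19220, which include colonic numbers 2, 3 and 5, the deficient call was lost (-2.25, adjusted p = 0.264).

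In cluster C, Hoxc9, which sets the thoracic level of the spinal cord, was 0.315, 0.912 and 1.98 CPM (lowest, median, highest) in small intestinal nodes on the sufficient diet, against 4.37, 2.29, 1.79, 2.27 and 6.08 CPM in colonic nodes. The ranges met only at their edges (-1.97 ± 0.29, adjusted p = 1.22e-05). On the deficient diet Hoxc9 was 0.399, 1.26 and 3.25 CPM in small intestinal nodes, against 1.63, 2.72 and 3.36 CPM in colonic nodes, and was not called (-0.99 ± 0.28, adjusted p = 0.0563). Hoxc6, a gene of the upper trunk, was 2.81, 4.81 and 9.55 CPM in small intestinal nodes and 12.6, 9.35, 5.36, 6.82 and 6.55 CPM in colonic nodes on the sufficient diet, with wide overlap (-0.66 ± 0.17, adjusted p = 0.0178). The Hoxc6 call was lost when the sufficient libraries numbered 1, 2 or 5 were left out (adjusted p from 0.0517 to 0.151), without the libraries high in pancreatic RNA (-0.60, adjusted p = 0.0678) and with a term for fibroblast markers (-0.62, adjusted p = 0.0665). With female mice only, the sufficient calls of Hoxc9 (adjusted p = 0.0736) and Hoxa9 (adjusted p = 0.141) were lost, with log2 fold changes of -1.76 and -2.26.

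**Figure D2:**
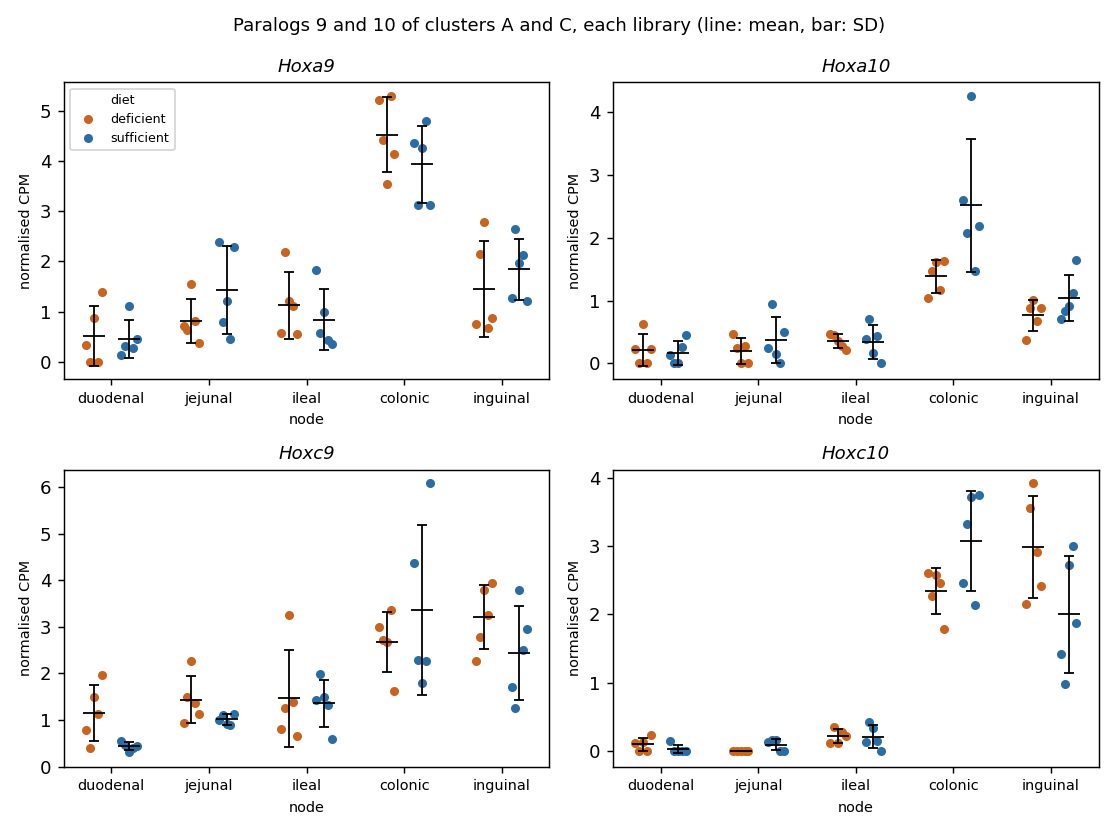
Points are single libraries, lines and bars the mean and SD of 5 libraries, for Hoxa9, Hoxa10, Hoxc9 and Hoxc10 in normalised CPM on linear axes, by node, with deficient libraries left of sufficient ones. Every colonic library lies above every other library of its diet for Hoxa9, while Hoxc10 is near 0 in the 3 small intestinal nodes and at 0.974 to 3.92 CPM in colonic and inguinal nodes.

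In cluster D, whose high-numbered genes pattern the hindlimb and the lumbosacral cord, none of the 5 tested members was called between small intestinal and colonic nodes on either diet. Hoxd9 averaged 7.71 ± 2.26 CPM in duodenal, 12.5 ± 1.55 in jejunal and 18.1 ± 1.70 in ileal nodes on the deficient diet, against 13.9 ± 1.86 CPM in colonic nodes (-0.21 ± 0.14, adjusted p = 0.663). The sufficient value was -0.09 ± 0.14 (adjusted p = 0.863). Hoxd10 averaged 1.45 ± 0.51, 3.23 ± 0.92 and 3.85 ± 0.36 CPM in the same small intestinal nodes, against 3.19 ± 0.58 CPM in colonic nodes (-0.27 ± 0.23, adjusted p = 0.778). The colonic mean thus lay between the duodenal and ileal means for both genes. Hoxd11, the next gene in the cluster, did not pass the filter on low counts. It was 0.653, 0.454, 1.07, 0 and 0.444 CPM in deficient colonic nodes and 0.820, 0.623, 0.412, 0.267 and 0.468 CPM in sufficient colonic nodes. It averaged at most 0.131 CPM in the other 8 groups. In a fit with no filter its log2 fold change for small intestinal over colonic nodes was -2.55 (adjusted p = 0.0379) on the deficient diet and -2.12 (adjusted p = 0.127) on the sufficient diet.

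Small intestinal nodes were then compared with inguinal nodes. Hoxc10, Hoxc9 and Hoxa10 were lower in small intestinal nodes on both diets. On the sufficient diet Hoxc4 and genes of clusters B and D were called higher. On the deficient diet 4 of 25 members were called, all lower, against 7.38% of all genes called and 2.47% called lower. On the sufficient diet 11 were called, 7 higher and 4 lower, against 19.5% of all genes called, 11.1% higher and 8.39% lower. The median of the members was -0.16 on the deficient and 0.34 on the sufficient diet, against -0.02 over all genes on each.

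Hoxc10 in inguinal nodes was 2.15, 3.55, 3.92, 2.92 and 2.41 CPM on the deficient diet and 1.42, 0.974, 2.73, 3.01 and 1.87 CPM on the sufficient diet. Every value lay above the small intestinal libraries of the same diet, given above. The mean was 29.1 times higher in inguinal than in small intestinal nodes on the deficient diet (-5.29 ± 0.37, adjusted p = 5.52e-14) and 18.6 times higher on the sufficient diet (-4.29 ± 0.38, adjusted p = 2.27e-11).

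Hoxc9 was 0.399, 1.26 and 3.25 CPM (lowest, median, highest) in small intestinal nodes on the deficient diet, against 2.27, 2.79, 3.79, 3.26 and 3.95 CPM in inguinal nodes, with an overlap made by 1 ileal library (-1.24 ± 0.27, adjusted p = 0.00168). Sufficient inguinal nodes had 1.70, 1.25, 3.79, 2.51 and 2.96 CPM of Hoxc9, and the small intestinal ranges were those given for the colonic comparison (-1.51 ± 0.30, adjusted p = 0.000204). Hoxa10 was 0.379, 0.888, 1.01, 0.674 and 0.877 CPM in deficient inguinal nodes (-1.53 ± 0.48, adjusted p = 0.0399) and 0.708, 0.835, 0.909, 1.13 and 1.65 CPM in sufficient inguinal nodes (-1.91 ± 0.48, adjusted p = 0.00279). Its ranges overlapped those of small intestinal nodes on both diets. The other lower calls were close to the threshold, Hoxc6 on the deficient diet (-0.55 ± 0.17, adjusted p = 0.0387) and Hoxa9 on the sufficient diet (-1.16 ± 0.42, adjusted p = 0.0426).

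The 7 members higher in small intestinal than in inguinal nodes on the sufficient diet were Hoxc4, Hoxd9, Hoxb4, Hoxb3, Hoxd8, Hoxb5 and Hoxd10. Hoxc4, a neck-level gene that also acts in B cells, was 2.55, 3.65 and 5.78 CPM (lowest, median, highest) in small intestinal nodes and 1.84, 1.95, 1.82, 1.38 and 3.18 CPM in inguinal nodes. Hoxb4, which supports haematopoietic stem cells, was 8.50, 10.6 and 12.8 CPM in small intestinal nodes, against 7.22, 6.26, 10.1, 7.64 and 7.90 CPM in inguinal nodes. Both overlapped at the edges of their ranges (Hoxc4 0.95 ± 0.19, adjusted p = 0.0002, and Hoxb4 0.47 ± 0.12, adjusted p = 0.00361). Hoxd9 differed by 0.60 ± 0.15 (adjusted p = 0.00287), Hoxb3 by 0.81 ± 0.25 (adjusted p = 0.0145), Hoxd8 by 0.65 ± 0.20 (adjusted p = 0.0197) and Hoxb5, a gene of the enteric nerve lineage, by 0.64 ± 0.21 (adjusted p = 0.0229).

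Fibroblast markers moved with this comparison: of 15 markers, 7 were higher and 4 lower in small intestinal nodes on each diet. Their sum was 1279.5 to 1952 CPM in deficient small intestinal nodes against 1138 to 1553.5 CPM in inguinal nodes, and 1422.5 to 2159 CPM in sufficient small intestinal nodes against 1079 to 1468 CPM in inguinal nodes. With a term for that sum in the fit, 4 members were called on the sufficient diet (11 without it) and 2 on the deficient diet (4 without it), and the sufficient calls lost included Hoxd9 (0.43, adjusted p = 0.144), Hoxb4 (0.30, adjusted p = 0.233), Hoxd8 (0.33, adjusted p = 0.477) and Hoxb5 (0.23, adjusted p = 0.635). Those of Hoxb3 (0.82, adjusted p = 0.0854) and Hoxa9 (-1.46, adjusted p = 0.0737) were lost with fold changes at least as large as without the term. The deficient calls lost with it were Hoxc6 (-0.49, adjusted p = 0.182) and Hoxa10 (-1.57, adjusted p = 0.0956), and the Hoxa10 fold change was about the same as without the term. Lymphatic endothelial markers also moved, with 7 of 9 higher in small intestinal nodes on the deficient and all 9 on the sufficient diet. Their sums did not overlap, at 2199 to 3585 CPM in deficient small intestinal against 1429 to 1848 CPM in inguinal nodes, and 2719 to 4634 CPM in sufficient small intestinal against 1366 to 1758 CPM in inguinal nodes. Of 6 B cell markers, 5 were lower in small intestinal nodes on the deficient and all 6 on the sufficient diet, and 4 of 7 T cell markers were lower on the sufficient diet. The part of these cells was not tested. With female mice only, which left 2 libraries a node on the sufficient diet, 1 member was called there. Among the lower calls Hoxc9 (-0.59, adjusted p = 0.536) and Hoxa10 (-1.34, adjusted p = 0.299) were lost. Leaving out the sufficient libraries of 1 number ended the sufficient calls of Hoxb3 (2 or 4, adjusted p up to 0.137), Hoxd8 (1, 2 or 4, up to 0.115) and Hoxb5 (1, 2, 3 or 4, up to 0.114), and that of Hoxa9 was lost without sufficient 2, 4 or 5 or deficient 1 (up to 0.218), and without the libraries high in pancreatic RNA (-1.11, adjusted p = 0.0518). The deficient calls of Hoxc6 and Hoxa10 were lost without deficient 2, 3, 4 or 5, and also without sufficient 4 for Hoxc6 (adjusted p up to 0.155) and sufficient 1 for Hoxa10 (up to 0.183). Without the libraries low in Gm19220 they were -0.33 (adjusted p = 0.705) for Hoxc6 and -1.22 (adjusted p = 0.57) for Hoxa10, and without those high in pancreatic RNA the Hoxc6 call was lost (-0.55, adjusted p = 0.0808).

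Few Hox genes were called between colonic and inguinal nodes. On the deficient diet 0 of 25 members were called by edgeR, against 1.99% of all genes, and 4 had an unadjusted p under 0.05. DESeq2 called 2 and limma-voom 1. The smallest adjusted p were those of Hoxd10 (1.04, adjusted p = 0.0511) and Hoxa9 (1.64, adjusted p = 0.0595). Although neither was called by edgeR, every colonic library lay above every inguinal one for Hoxa9 on both diets and Hoxa10 on the deficient diet. The colonic and inguinal means of Hoxa9 were 4.53 and 1.45 CPM on the deficient and 3.94 and 1.85 CPM on the sufficient diet. In sufficient mice 3 members were called, or 12%, all higher in colonic nodes, against 4.34% of all genes called and 2.98% called higher. Hoxd9 was 11.5, 13.7, 12.8, 13.1 and 19.3 CPM in colonic nodes and 5.95, 8.07, 11.1, 8.52 and 10.2 CPM in inguinal nodes, without overlap (0.69 ± 0.18, adjusted p = 0.0164). Hoxc4 (0.89 ± 0.23, adjusted p = 0.0138) and Hoxc6 (0.78 ± 0.22, adjusted p = 0.0294) overlapped between the nodes. None of the 3 was called with female mice only, and each lost its call when the sufficient libraries of some numbers were left out (1, 2 or 3 for Hoxc4, and 1, 2, 4 or 5 for Hoxd9 and Hoxc6, with adjusted p from 0.0525 to 0.287). Of 15 fibroblast markers, 4 were higher and 2 lower in colonic nodes on the deficient diet, and 5 higher and 1 lower on the sufficient diet. Their sum was 1180 to 1778 CPM in deficient colonic against 1138 to 1553.5 CPM in inguinal nodes, and 1405 to 1678 CPM in sufficient colonic against 1079 to 1468 CPM in inguinal nodes, and with a term for it Hoxd9 lost its call (0.61, adjusted p = 0.0519). Lymphatic endothelial markers were higher in colonic nodes, 5 of 9 on the deficient and 7 on the sufficient diet, with a part that was not tested.

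Duodenal nodes were set against ileal nodes, the ends of the small intestine, and the genes of cluster D stood together. Hoxd4, Hoxd8, Hoxd9 and Hoxd10 were lower in duodenal nodes on both diets, which is 4 of the 5 tested members of the cluster. On the deficient diet 5 of 25 members were called, 4 lower and 1 higher, against 5.72% of all genes called, 2.74% lower and 2.98% higher. In sufficient mice 9 were called, all lower, against 8.22% called and 5.11% lower. The median of the members was -0.44 on the deficient and -0.77 on the sufficient diet, against 0.01 over all genes on each.

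Hoxd9, the most abundant member in CPM, was 7.36, 4.26, 7.69, 8.89 and 10.4 CPM in duodenal nodes and 18.7, 16.4, 16.3, 20.2 and 18.9 CPM in ileal nodes on the deficient diet. The groups did not overlap (-1.23 ± 0.18, adjusted p = 5.13e-06). In sufficient mice Hoxd9 was 8.46, 7.97, 9.61, 12.5 and 5.20 CPM in duodenal and 17.0, 19.0, 25.5, 24.4 and 16.9 CPM in ileal nodes, again apart (-1.21 ± 0.18, adjusted p = 8.36e-06). Jejunal nodes lay between, at 12.5 ± 1.55 CPM on the deficient and 12.8 ± 2.59 CPM on the sufficient diet.

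Hoxd10 was 2.04, 1.07, 1.24, 0.946 and 1.96 CPM in duodenal and 4.37, 3.90, 3.37, 3.87 and 3.74 CPM in ileal nodes on the deficient diet (-1.37 ± 0.30, adjusted p = 0.00173). Its sufficient values were 1.94, 0.938, 2.05, 1.99 and 2.49 CPM in duodenal and 7.32, 3.12, 8.46, 6.47 and 3.03 CPM in ileal nodes (-1.60 ± 0.29, adjusted p = 0.000222). The groups were apart on both diets, with ileal libraries 2 and 5 of the sufficient diet well below the other 3. Of the 1816 annotated exonic bases of Hoxd10, 104 are shared with Gm28309 on the same strand, so reads there may be divided.

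Hoxd8 was 6.56, 5.19, 5.83, 5.2953 and 8.65 CPM in duodenal and 10.0045, 9.40, 13.02, 17.0 and 15.5 CPM in ileal nodes on the deficient diet, without overlap (-1.03 ± 0.24, adjusted p = 0.00461). Its sufficient values were 9.15, 8.60, 10.6, 10.5 and 4.75 CPM in duodenal and 19.1, 22.7, 19.9, 20.6 and 10.8 CPM in ileal nodes (-1.08 ± 0.24, adjusted p = 0.00206), also apart.

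Hoxd4, a hindbrain gene with retinoic acid response elements, was 6.90, 6.52, 3.85, 6.43 and 7.15 CPM in duodenal and 6.09, 10.2, 9.64, 14.1 and 8.68 CPM in ileal nodes on the deficient diet. A single ileal library, number 1, lay inside the duodenal range (-0.65 ± 0.19, adjusted p = 0.0255), and the call was lost without deficient libraries 2, 3 or 4 (adjusted p from 0.0786 to 0.202), without the libraries low in Gm19220 (-0.51, adjusted p = 0.195) and with female mice only (-0.66, adjusted p = 0.0773). In sufficient mice Hoxd4 was 8.88, 6.25, 7.24, 8.36 and 6.56 CPM in duodenal and 13.7, 10.8, 15.8, 13.7 and 11.8 CPM in ileal nodes, without overlap (-0.80 ± 0.19, adjusted p = 0.00328). Exons of Hoxd4 and Hoxd3 overlap in the annotation, so reads may be divided between them. Hoxd3 itself was not called in this comparison.

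**Figure D3:**
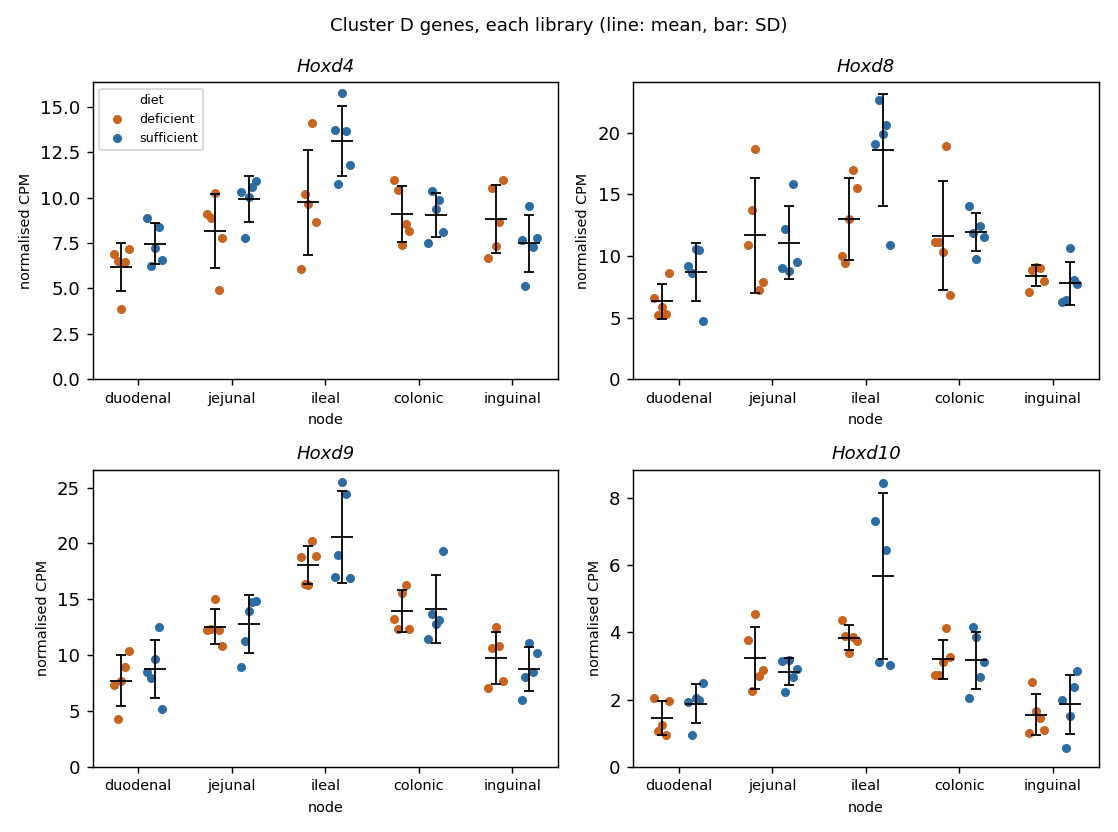
Points are single libraries, lines and bars the mean and SD of 5 libraries, for Hoxd4, Hoxd8, Hoxd9 and Hoxd10 in normalised CPM on linear axes, by node, with deficient libraries left of sufficient ones. Ileal nodes are highest in mean for each gene on both diets, and duodenal nodes are at or near the lowest.

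On the sufficient diet 5 more members were lower in duodenal than in ileal nodes. Hoxb9, a thoracic gene, was 0.277, 0.469, 0, 0.265 and 0.226 CPM in duodenal and 1.57, 0.992, 1.33, 0.588 and 0.350 CPM in ileal nodes, from 8 and 34 counts (-1.87 ± 0.44, adjusted p = 0.00449). Hoxc9 was 0.555, 0.469, 0.315, 0.398 and 0.453 CPM in duodenal and 1.44, 1.98, 1.49, 1.32 and 0.583 CPM in ileal nodes (-1.59 ± 0.46, adjusted p = 0.021). Hoxb9 overlapped by 1 ileal library and Hoxc9 did not overlap. Hoxb6 (-0.77 ± 0.23, adjusted p = 0.03), Hoxb5 (-0.76 ± 0.25, adjusted p = 0.0463) and Hoxb7 (-0.70 ± 0.23, adjusted p = 0.0489) completed the calls. Leaving out the sufficient libraries numbered 1 or 3 ended the Hoxb9 call (adjusted p to 0.0819), and numbers 1, 2, 3 or 4 that of Hoxc9 (to 0.0966).

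The Hox gene called higher in duodenal nodes was Hoxa3, needed for the thymus and parathyroid, on the deficient diet (0.89 ± 0.26, adjusted p = 0.0323), with overlapping groups. This call was lost without deficient libraries 3, 4 or 5 (adjusted p from 0.0617 to 0.549), and without the libraries high in pancreatic RNA (0.31, adjusted p = 0.786).

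Pancreatic genes moved with this comparison. All 16 pancreatic markers were higher in duodenal nodes on both diets, with sums of 69.0 to 346752 CPM in deficient duodenal nodes against 17.7 to 127.8 CPM in ileal nodes, and 668 to 444266 CPM in sufficient duodenal nodes against 11.2 to 3918.5 CPM in ileal nodes. Without the 6 libraries high in pancreatic RNA, 1 member was called on the deficient diet (5 with them), where 2 duodenal libraries were left, and 5 on the sufficient diet (9 with them). Hoxd9 was called on both diets without them, whereas Hoxd10 (-0.97, adjusted p = 0.276), Hoxd8 (-0.79, adjusted p = 0.278) and Hoxd4 (-0.49, adjusted p = 0.45) were not called on the deficient diet. The sufficient calls lost without them were Hoxc9 (-1.65, adjusted p = 0.071), Hoxb5, Hoxb6 and Hoxb7. With female mice only, which left 2 libraries a node on the sufficient diet, Hoxd10 (-1.83, adjusted p = 0.0773), Hoxd8 (-1.23, adjusted p = 0.136) and Hoxd4 (-0.69, adjusted p = 0.492) were not called there. Of 9 lymphatic endothelial markers, 1 was higher and 6 lower in duodenal nodes on the deficient diet, and 7 were lower on the sufficient diet. Their sum was 2199 to 2824 CPM in deficient duodenal against 2493 to 3050 CPM in ileal nodes, and 2719 to 3734 CPM in sufficient duodenal against 3314 to 4634 CPM in ileal nodes. Of 7 T cell markers, 6 were higher in duodenal nodes on the sufficient diet, with sums of 1373 to 1515 CPM in duodenal against 987 to 1256 CPM in ileal nodes. Their part in the result was not tested.

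**Figure D4:**
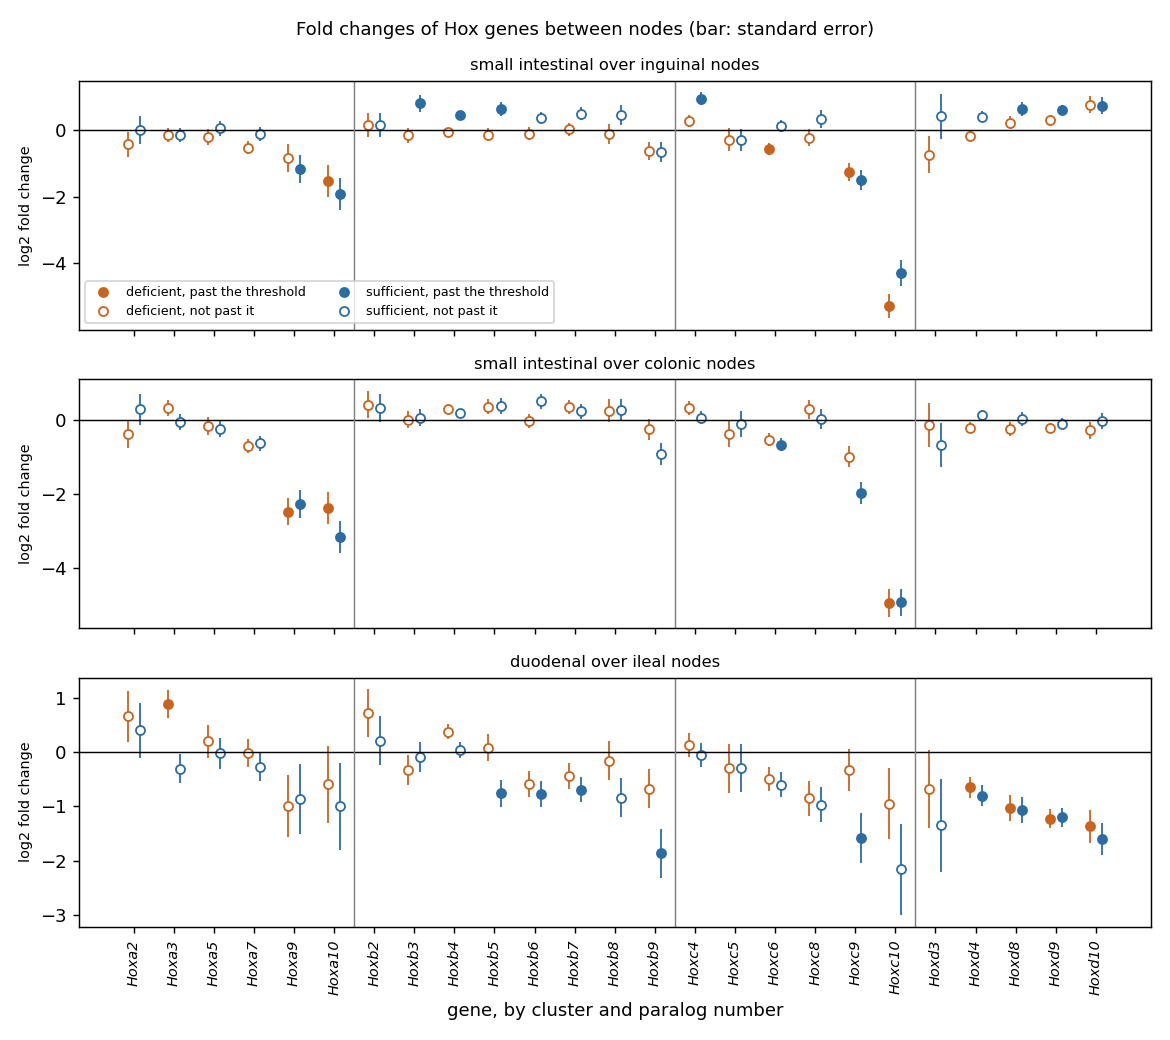
Log2 fold changes of the 25 tested Hox genes (bars are standard errors), ordered by cluster and paralog number, for 3 comparisons between nodes, with deficient and sufficient diets side by side and filled points past the adjusted p threshold of 0.05. The deep values in small intestinal over colonic nodes are those of Hoxa9, Hoxa10, Hoxc9 and Hoxc10, and cluster D stands near 0 there but at -0.65 to -1.60 in duodenal over ileal nodes, leaving Hoxd3 aside.

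Few Hox genes differed between the diets. Deficient mice were set against sufficient mice node by node, and by edgeR 0 of 25 members were called in duodenal nodes (against 10.4% of all genes), 1 in jejunal (4.64%), 2 in ileal (5.85%), 1 in colonic (2.28%) and 0 in inguinal nodes (0.855%). All 4 calls were lower on the deficient diet, and the shares of all genes called lower were 1.84% in jejunal, 3.05% in ileal and 0.978% in colonic nodes. The members' count was near that background. Their median log2 fold change was 0.01 in duodenal, -0.26 in jejunal, -0.24 in ileal, -0.23 in colonic and 0.37 in inguinal nodes, against -0.004 to 0.014 over all genes. At an unadjusted p under 0.05, 4 members passed in duodenal and 1 in inguinal nodes. The smallest adjusted p there were those of Hoxc9 (1.40, adjusted p = 0.0553) and Hoxb9 (1.33, adjusted p = 0.0786) in duodenal nodes, and Hoxb3 (0.72, adjusted p = 0.319) and Hoxd9 (0.38, adjusted p = 0.442) in inguinal nodes.

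Hoxb4 gave 3 of the 4 calls. In jejunal nodes it was 7.20, 6.36, 8.72, 6.11 and 5.90 CPM on the deficient and 11.1, 11.3, 12.6, 12.5 and 10.6 CPM on the sufficient diet (-0.70 ± 0.15, adjusted p = 0.00361). In ileal nodes it was 6.78, 7.00, 6.99, 5.80 and 6.26 CPM on the deficient and 10.8, 8.50, 12.8, 9.26 and 10.4 CPM on the sufficient diet (-0.59 ± 0.16, adjusted p = 0.0133). In colonic nodes it was 4.96, 5.67, 7.39, 7.63 and 3.70 CPM on the deficient and 9.84, 9.35, 7.98, 9.76 and 10.6 CPM on the sufficient diet (-0.63 ± 0.16, adjusted p = 0.0194). In each of these nodes every deficient library was below every sufficient one. Duodenal nodes averaged 8.54 ± 0.83 CPM on the deficient and 10.6 ± 1.29 CPM on the sufficient diet, and inguinal nodes 7.46 ± 1.13 and 7.84 ± 1.44 CPM on those diets, and neither was called.

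The Hoxb4 calls were not equally stable. With female mice only the adjusted p was 0.0696 in jejunal, 0.182 in ileal and 0.156 in colonic nodes, with log2 fold changes of -0.71, -0.55 and -0.70. The ileal call was also lost without the sufficient libraries numbered 1 (adjusted p = 0.118), and the colonic call without numbers 1 or 5 of the sufficient or 1, 2 or 5 of the deficient diet (adjusted p from 0.0589 to 0.134). Without the libraries low in Gm19220, which left 2 deficient colonic libraries, the colonic call was also lost (-0.53, adjusted p = 0.231).

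Hoxa5, which directs lung and diaphragm development and is induced by retinoic acid, was 1.95, 2.06, 2.41, 0.967 and 2.31 CPM in ileal nodes on the deficient and 3.40, 3.26, 5.14, 5.00 and 3.50 CPM on the sufficient diet. The groups did not overlap (-0.99 ± 0.31, adjusted p = 0.0475), but the call lay at the threshold and was lost without any 1 number of either diet except sufficient number 1 (adjusted p from 0.051 to 0.216). It was also lost without the libraries low in Gm19220 (-1.14, adjusted p = 0.0775) or high in pancreatic RNA (adjusted p = 0.0565), and with female mice only (-0.76, adjusted p = 0.396). Other cell markers differed between the diets in ileal nodes. Of 9 lymphatic endothelial markers 3 were lower on the deficient diet, with sums of 2493 to 3050 CPM in deficient against 3314 to 4634 CPM in sufficient ileal nodes. Of 7 T cell markers 5 were higher, with sums of 1334 to 1517 CPM in deficient against 987 to 1256 CPM in sufficient ileal nodes. Neither sum overlapped between the diets, and the part of these cells in the Hoxb4 and Hoxa5 results was not tested.

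**Figure D5:**
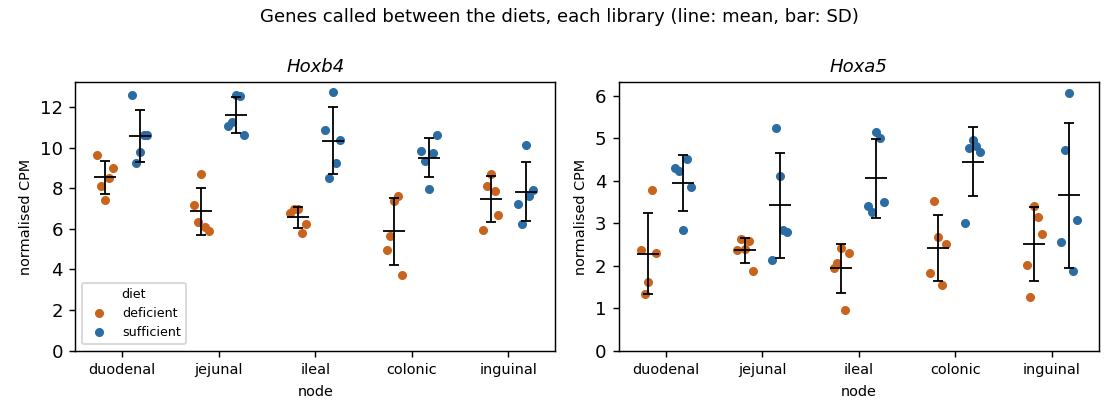
Points are single libraries, lines and bars the mean and SD of 5 libraries, for Hoxb4 and Hoxa5 in normalised CPM on linear axes, by node, with deficient libraries left of sufficient ones. Hoxb4 is lower in every deficient than every sufficient library in jejunal, ileal and colonic nodes, while the groups overlap in inguinal nodes.

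Whether diet changed the differences between nodes was tested with interaction terms. By edgeR 0 of 25 members were called for any node (against 1.03% of all genes), 0 for small intestinal over colonic nodes (0.0833%) and 0 for duodenal over ileal nodes (0.233%). At an unadjusted p under 0.05 the counts were 6, 1 and 3. The smallest adjusted p for small intestinal over colonic nodes was that of Hoxc9 (0.99, adjusted p = 0.693) and for duodenal over ileal nodes that of Hoxa3 (1.20, adjusted p = 0.175). Calls made on 1 diet and missed on the other, such as those of cluster B, were therefore not shown to differ between the diets.

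Genes that work with or upstream of Hox proteins were read from lists. Of 9 tested TALE cofactors (the PBX, MEIS and PKNOX partners that bind DNA with Hox proteins), 2 were higher in small intestinal than in inguinal nodes on the deficient diet (against 7.38% of all genes called) and 3 on the sufficient diet (19.5%). Meis2 was 9.78 to 29.7 CPM in deficient small intestinal and 6.19 to 12.3 CPM in inguinal nodes (1.01 ± 0.20, adjusted p = 0.000293), and the sufficient value was 1.40 ± 0.20 (adjusted p = 7.55e-07). Meis1 differed by 0.66 ± 0.17 (adjusted p = 0.00944) on the deficient and 1.08 ± 0.18 (adjusted p = 1.31e-05) on the sufficient diet. In colonic over inguinal nodes 1 cofactor was higher on the deficient (1.99% of all genes called) and 2 on the sufficient diet (4.34%), and by edgeR 0 were called between small intestinal and colonic nodes, with 1 at an unadjusted p under 0.05 on each diet. Meis2 was lower in duodenal than in ileal nodes on the sufficient diet (-0.72 ± 0.22, adjusted p = 0.0306), and lower on the deficient than on the sufficient diet in ileal nodes (-0.76 ± 0.23, adjusted p = 0.038).

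Of 15 upstream regulators, 10 were tested. Cdx1 and Cdx2, the intestinal epithelial CDX genes, averaged at most 0.08 CPM and were not among them. Cyp26b1, the enzyme that breaks down retinoic acid, was 0.339, 0.932, 0, 0.378 and 0.807 CPM in duodenal nodes on the deficient and 5.69, 5.78, 4.25, 3.85 and 6.34 CPM on the sufficient diet. It was lower on the deficient diet in all 4 gut-draining nodes (log2 fold changes -3.27, -4.33, -3.66 and -2.02 in duodenal, jejunal, ileal and colonic nodes, adjusted p from 1.07e-09 to 0.00222). The retinoic acid receptor gene Rara was higher on the deficient diet in duodenal (0.68 ± 0.10, adjusted p = 2.27e-06) and jejunal nodes (0.48 ± 0.10, adjusted p = 0.000981). Zbtb16, a repressor that acts on Hox genes of cluster D in the limb, was higher in ileal (1.71 ± 0.32), colonic (1.57 ± 0.32) and inguinal nodes (2.17 ± 0.32, adjusted p from 6.72e-05 to 0.00302). In all, 3 were higher and 2 lower on the deficient diet in duodenal nodes, 2 higher and 1 lower in each of jejunal, ileal and colonic nodes, and 1 higher in inguinal nodes, against 10.4%, 4.64%, 5.85%, 2.28% and 0.855% of all genes called in those nodes. Between nodes, Cyp26b1 was lower in small intestinal than in inguinal nodes (-4.47 deficient and -1.39 sufficient, adjusted p = 2.61e-16 and 1.96e-05). It was also lower in colonic than in inguinal nodes (-3.35 deficient and -2.0006 sufficient, adjusted p = 3.07e-08 and 6.35e-05). Rxra, also on the list, was lower in duodenal than in ileal nodes (-0.37 deficient and -0.92 sufficient, adjusted p = 0.0326 and 2.47e-07). The part of these genes in the Hox differences was not tested.

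Of 21 Polycomb genes, which keep Hox genes silent, 0 were called by edgeR between nodes on the deficient diet, and at most 2 had an unadjusted p under 0.05 in a comparison. On the sufficient diet 3 were lower in small intestinal than in inguinal nodes (19.5% of all genes called) and 1 lower in duodenal than in ileal nodes (8.22%). Between the diets, 3 were higher on the deficient diet in duodenal, 4 in jejunal and 2 in ileal nodes, against 10.4%, 4.64% and 5.85% of all genes called, so the duodenal and ileal counts lay near the background. Of 13 Trithorax genes, which keep Hox genes active, 1 was called, Kmt2b, lower in small intestinal than in inguinal nodes on the sufficient diet (-0.27 ± 0.09, adjusted p = 0.0299). In that comparison 19.5% of all genes were called and 8.39% called lower. Of 17 noncoding transcripts of the clusters 6 were tested, and the calls were Hoxb5os, lower in duodenal than in ileal nodes on the deficient diet (-2.69 ± 0.77, adjusted p = 0.0234), and Hoxaas2, higher there on the sufficient diet (1.28 ± 0.40, adjusted p = 0.0352). Between duodenal and ileal nodes 5.72% of all genes were called on the deficient and 8.22% on the sufficient diet. Of the tested members, 7 have exons that overlap a gene on the opposite strand, Hoxb5 with Hoxb5os and Hoxa3 with Hoxaas2 among them. The sources used here do not give the strand setting of the counting, so reads within the shared bases cannot be told apart. The overlap was 100 of 2786 exonic bases for Hoxb5, and for Hoxa3 at most 503 of 6014 with any 1 such gene.

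Other cell markers were read beside the Hox genes. Between small intestinal and colonic nodes 2 of 15 fibroblast markers were higher and 1 lower on each diet, and their sum was 1279.5 to 1952 CPM in deficient small intestinal against 1180 to 1778 CPM in colonic nodes, and 1422.5 to 2159 CPM in sufficient small intestinal against 1405 to 1678 CPM in colonic nodes. Lymphatic endothelial markers were higher in small intestinal than in colonic nodes (1 of 9 on the deficient, 5 on the sufficient diet) and B cell markers lower (2 and 4 of 6 on those diets). Between the diets 2 fibroblast markers were higher and 1 lower in duodenal and in ileal nodes, 1 higher and 2 lower in jejunal, and 1 higher in colonic and in inguinal nodes. Of 9 intestinal epithelial markers 4 were tested and 0 were called by edgeR in any comparison (at most 2 at an unadjusted p under 0.05), with sums of 18.6 to 35.2 CPM over all libraries. Adipocyte markers were higher in colonic than in inguinal nodes on the sufficient diet (8 higher and 1 lower of 11), with sums of 1121 to 2768 CPM in colonic and 145 to 1386 CPM in inguinal nodes. Adipocyte sums were 264 to 942 CPM in sufficient duodenal and 1427 to 3245 CPM in sufficient jejunal nodes. Smooth muscle sums were 339 to 393 CPM in sufficient inguinal nodes, against at most 312 CPM in small intestinal and 333 CPM in colonic nodes. On the deficient diet they were 331 to 417 CPM in inguinal nodes, and overlapped those of duodenal nodes (273 to 393 CPM). The part of these cells in the Hox differences was not tested.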

How the data were processed

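RNA was extracted with TRIzol from lymph nodes and libraries were made with a NEBNext kit, per the labels' protocols. The estimated counts per gene were deposited by the authors in 1 table, and 0.122% of the nonzero values were whole to within 1e-06. The submitters' processing notes name kallisto, limma, edgeR, GRCm39 and mm10, and the sources used here give neither their roles nor their versions. Nor do they explain the word 3rd in 25 column names, which were read as deficient since the remaining 25 carry the word control.

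Estimated counts were rounded to whole numbers, 379 entries without a gene name (0.231% to 0.491% of counts) were left out, and edgeR's filterByExpr left 18004 genes. Libraries were scaled with TMM, and levels are CPM, counts scaled to the normalised library size. A mean for each node and diet and a sex term entered edgeR's quasi-likelihood fit of all 50 libraries, and p-values were adjusted over all genes tested (Benjamini-Hochberg, threshold 0.05). All deficient mice were female, so sufficient libraries alone inform the sex term. Standard errors came from the log2 fold change divided by the square root of F. Small intestinal nodes enter as the mean of 3 node means. Levels per kilobase use the median transcript length in GENCODE M21. The fit was also run on simulated counts with known changes, and the outcome is not given here. Those counts were drawn independently for each library, without the shared deviations of libraries of the same number.

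The members and lists were chosen with earlier results of these data known. Named in each comparison were up to 6 called members per direction with the smallest adjusted p, or the 2 with the smallest p where none was called. The highest member of each cluster, the paralogs 9 and 10, and up to 2 called genes per list were also named, and other names were chosen after their values were seen. Some genes that this rule names are not reported here. Exon overlaps were read from GENCODE M21, where 8 of the 25 tested members share exonic bases with a gene on the same strand, 7 overlap a gene on the opposite strand, and 13 have neither. Alternatives were RLE scaling, no filter, a filter of 1 CPM in 5 libraries, limma-voom, DESeq2, no sex term, female mice only, libraries of 1 diet or node only, a replicate block, leaving out each number of a diet, leaving out or marking the libraries low in Gm19220, leaving out those high in pancreatic RNA, and a fibroblast term. Leaving out the pancreatic or Gm19220 libraries from the summed levels was chosen after seeing the data. Tools were R 4.3.3, edgeR 4.0.16, limma 3.58.1, DESeq2 1.42.0, Python 3.11.15, pandas 2.3.3, numpy 2.4.6 and matplotlib 3.10.9.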

Additional observations from a re-analysis of the deposited data

Results flagged for a closer look

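In 190 groups of 5 libraries (19 named Hox genes in 10 groups), 9 values stood so far from the other 4 of their group that the gap passed the critical share of the range, 0.71. Chance alone gives this in about 1 in 20 groups, so the number of such values is no sign of a pattern. Hoxa5 was 3.0056 CPM in sufficient colonic library 1, against 4.68 to 4.95 CPM in the others. Hoxb3 was 0.8772 CPM in sufficient inguinal library 4, against 3.07 to 3.82 CPM. Hoxb5 was 5.6719 CPM in sufficient jejunal library 4, against 3.33 to 3.90 CPM. Hoxc4 was 5.4309 CPM in sufficient duodenal library 5, against 2.83 to 3.28 CPM. Hoxc9 was 3.2539 CPM in deficient ileal library 3, against 0.659 to 1.38 CPM. Hoxc10 was 0.1387 CPM in sufficient duodenal library 1, against 0 in the others. Hoxd4 was 3.8461 CPM in deficient duodenal library 3, against 6.43 to 7.15 CPM, and 7.7668 CPM in sufficient jejunal library 2, against 10.03 to 10.9 CPM. Hoxd9 was 19.344 CPM in sufficient colonic library 5, against 11.5 to 13.7 CPM. None of these libraries was left out on its own.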

How the results depend on the processing

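No Hox gene named in a comparison changed direction under any of 23 alternatives, and RLE scaling moved no count of calls. In all alternatives run, Hoxc10 held its 4 calls against colonic and inguinal nodes, Hoxd9 its calls in duodenal over ileal nodes on both diets, Hoxa9 (deficient) and Hoxa10 (sufficient) theirs in small intestinal over colonic nodes, and Hoxc9 its deficient call over inguinal nodes. The counts of Hox genes called that moved by over 1.5 times follow, and the cause was not tested. The share of all genes called in each alternative is not given here, and fits with fewer libraries have less power for every gene. Any difference among nodes on the deficient diet (10 called) gave 6 without the libraries low in Gm19220 and 6 without those high in pancreatic RNA. Small intestinal over inguinal nodes, deficient (4), gave 2 with no filter, 2 without the libraries low in Gm19220, 2 with a term for them and 2 with the fibroblast term. Colonic over inguinal nodes, deficient (0), gave 1 with limma-voom, 2 with DESeq2, 1 in libraries of the diet only, 1 with the Gm19220 term and 1 without high pancreatic RNA. Small intestinal over colonic nodes, deficient (3), gave 5 with limma-voom and 5 with DESeq2. Duodenal over ileal nodes, deficient (5), gave 3 with no filter, 3 with limma-voom, 3 in libraries of the diet only and 1 without high pancreatic RNA. On the sufficient diet, female mice only gave 7 for any node (16 with all mice), 1 for small intestinal over inguinal (11), 0 for colonic over inguinal (3), 3 for small intestinal over colonic (5) and 1 for duodenal over ileal nodes (9). There the fibroblast term gave 4 for small intestinal over inguinal, no filter 1 for colonic over inguinal, and leaving out high pancreatic RNA 5 for duodenal over ileal nodes. Between the diets, duodenal nodes (0) gave 2 with no sex term and 1 with the fibroblast term, and jejunal nodes (1) gave 0 with female mice only, 0 in libraries of the node only and 2 without high pancreatic RNA. Ileal nodes (2) gave 0 with no filter, with female mice only and in libraries of the node only, 4 with DESeq2, and 1 without the libraries low in Gm19220 and with the fibroblast term. Colonic nodes (1) gave 0 with no filter, with female mice only, in libraries of the node only and without the libraries low in Gm19220. Leaving out each number of a diet gave 7 to 11 (any node, deficient), 2 to 5 (small intestinal over inguinal), 0 to 1 (colonic over inguinal), 3 to 4 (small intestinal over colonic) and 3 to 5 (duodenal over ileal), and on the sufficient diet 11 to 17, 6 to 12, 0 to 3, 4 to 6 and 4 to 9 in the same order. Between the diets it gave 0 to 1 in duodenal, 1 to 2 in jejunal, 1 to 2 in ileal, 0 to 1 in colonic and 0 to 0 in inguinal nodes, and 0 to 0 for each interaction. Interactions could not be run in libraries of 1 diet or node.

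The labels give no pairing. Libraries of the same number in different nodes deviated together in part, with a correlation over 0.1 in 34 of 50 deficient and 35 of 50 sufficient pairs, and 19 of 25 libraries on each diet correlated best with their own number. With a replicate block, calls on the deficient diet numbered 1 for colonic over inguinal and 5 for small intestinal over colonic nodes. Between the diets in ileal nodes they numbered 4. Libraries of the same number on different diets came from different mice, some of them of different sex. A block by number thus pairs no mouse between the diets, and the 4 ileal calls are not read as a gain from pairing. The block moved no other count of calls by over 1.5 times, and among the named members it ended 1 call, that of Hoxa10 in small intestinal over inguinal nodes on the deficient diet (-1.55, adjusted p = 0.0519).

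Depth limits the low members most, since 3 tested genes averaged under 1 CPM and Hoxc10 rests on 11 to 13 counts over 15 small intestinal libraries.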
